A study of Mus musculus with 8 samples.

Results

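The methyl-CpG binding proteins were described here through 9 genes, taken by gene symbol from the count table: Mbd1 to Mbd6, Zbtb4, Zbtb33 and Zbtb38. All 9 were found among 26667 genes, and all 9 passed the filter on low counts, which left 12507 genes to test. Poly(A) RNA had been sequenced from bone-marrow-derived macrophages of C57BL/6 mice, grown from whole marrow with 30 ng/ml of M-CSF and 10% serum and taken at day 8 to 10. Wild-type (WT) and Dnmt3a KO cultures gave 4 libraries each; Dnmt3a encodes a de novo DNA methyltransferase. The labels give no age, Dnmt3a allele, promoter or Cre driver, and they do not tie libraries to single mice. A p-value here thus measures the spread from library to library, which may be technical.

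Methyl-CpG binding proteins are the readers of DNA methylation: they attach to methylated CpG sites and bring in complexes that compact chromatin or remove histone acetyl groups. One family shares the methyl-CpG binding domain (MBD), and the other, the Zbtb proteins, reads methylated DNA through zinc fingers. Not every member reads methylation with the same strength. Mammalian Mbd3 binds methylated DNA weakly if at all, and Mbd5 and Mbd6 sit at heterochromatin without a known preference for methylated CpG. The comparison asks whether the transcripts of the readers differ between WT cultures and cultures labelled KO for an enzyme that writes the mark.

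The promoters of the readers are themselves mostly rich in CpG, the dinucleotide on which Dnmt3a acts. RefSeq promoter windows of build GRCm38.p6, running from 250 bases before to 50 bases after each annotated start, were matched for 7 of the 9 genes (not Mbd1 and Mbd2) and gave 11 windows. These held a median of 25 CpG sites, against 20 in 11171 windows of tested genes and 7 in all 32851 windows. Relative to the number expected from the C and G content of a window, the medians were 0.705, 0.75 and 0.384. By that measure the members' windows lay below those of tested genes. The 3 windows printed here show the range, from the window with the most CpG sites (Mbd6, 44) through the single window of Mbd3 (22) to the window with the fewest (the downstream start of Mbd5, 4). Capitals mark CpG.
Mbd6, chr10:127288832-127289131, minus strand: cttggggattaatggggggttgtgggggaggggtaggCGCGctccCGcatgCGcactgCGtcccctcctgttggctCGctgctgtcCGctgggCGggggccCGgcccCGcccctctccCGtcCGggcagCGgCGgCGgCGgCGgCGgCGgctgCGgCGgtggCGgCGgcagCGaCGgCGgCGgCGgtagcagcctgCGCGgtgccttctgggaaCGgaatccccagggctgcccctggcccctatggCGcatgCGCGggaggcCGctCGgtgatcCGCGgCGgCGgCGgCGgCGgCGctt
Mbd3, chr10:80399482-80399781, minus strand: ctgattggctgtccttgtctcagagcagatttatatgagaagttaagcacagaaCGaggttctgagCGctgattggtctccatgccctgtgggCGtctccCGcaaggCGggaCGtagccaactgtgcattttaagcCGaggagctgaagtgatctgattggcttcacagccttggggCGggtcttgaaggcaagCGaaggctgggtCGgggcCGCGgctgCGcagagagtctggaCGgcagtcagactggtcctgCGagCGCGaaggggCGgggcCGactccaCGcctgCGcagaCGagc
Mbd5, chr2:49245650-49245949, plus strand: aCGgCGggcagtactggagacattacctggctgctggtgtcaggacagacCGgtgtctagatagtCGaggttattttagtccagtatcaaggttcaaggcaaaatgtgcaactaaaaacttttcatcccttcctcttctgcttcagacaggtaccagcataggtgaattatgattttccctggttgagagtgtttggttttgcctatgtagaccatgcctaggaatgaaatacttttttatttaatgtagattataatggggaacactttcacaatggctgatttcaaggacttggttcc

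The Mbd3 window also holds the letters TCCTGCNA, the sequence that Kaiso (the product of Zbtb33) is known to bind without methylation, starting at base 251 of the window on the gene's own strand. With G as its free base, the match contains a CpG. The motif occurred on either strand in 1 of the 11 windows (9.09%), in 4.57% of the windows of tested genes and in 4.96% of all 32851 windows. The 4 letters CGCG, a form of the sequence that Kaiso binds when methylated, occurred in 63.6% of the members' windows and in 67.0% of the windows of tested genes. These matches describe the letters alone, and no methylation or binding was measured in these libraries.

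Library totals ran from 12614006 to 28502631 counts. Dnmt3a lay between 150 and 170 CPM in the WT libraries and between 29.1 and 37.6 CPM in the KO libraries, CPM being the read count relative to the TMM-scaled library size. All 9 listed macrophage markers were detected, and Csf1r, the M-CSF receptor gene, had a mean of 2109 ± 99.5 CPM in WT against 2063 ± 243 CPM in KO (SD, n = 4 each). Lyz2, which encodes lysozyme and had the smallest p of these markers, averaged 5619 ± 540 CPM in WT against 7698 ± 1145 CPM in KO (adjusted p 0.112 by edgeR, 0.0207 by DESeq2). Of 13 tested neutrophil markers 5 rose and 0 fell (S100a9, for example, from 115 to 247 CPM, S100a8 from 65.5 to 145 CPM and Mmp8 from 60.3 to 147 CPM), and the summed level of all 15 on the list was 307 to 454 CPM in WT and 753 to 919 CPM in KO; the part of such cells in the members' values was not tested. Of 6 further marker lists (B cells, T and NK cells, dendritic cells, erythroid cells and megakaryocytes, mast cells and basophils, stromal cells), Cd22 and Itga2b rose, and no list summed to more than 277 CPM in a library. In bulk RNA, fewer cells of a type and less RNA per cell cannot be told apart. WT replicate 1 stood apart from the rest, lying outside the range of the other 7 libraries for 67.5% of tested genes, against 12.3% to 37.7% for any other library. Its deviation from the mean of all libraries went with the GC content of the longest transcript (Spearman rho 0.63 across 11116 genes), and that of KO replicate 2 went the opposite way (rho -0.60), while the other 6 libraries had a rho between -0.39 and 0.12.

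Compared per length, Mbd2 and Mbd3 transcripts were the most abundant of the 9. In CPM per kb of the longest transcript, Mbd2 was at 80.5 ± 6.28 in WT and 91.9 ± 4.01 in KO (SD, n = 4 each), a level above that of 94.1% of the 11116 tested genes with a length. Mbd3 followed at 79.0 ± 28.4 in WT and 65.3 ± 9.66 in KO, and Mbd1 at 22.4 ± 1.21 and 20.7 ± 2.83. Mbd2 and Mbd3 are subunits of the nucleosome-remodelling and deacetylase complex (NuRD), and each NuRD complex holds either of them. Mbd1, a repressor with CXXC zinc fingers beside its MBD, was separated from both by all 4 libraries of either genotype.

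Mbd6 lay next in level per length, at 11.4 ± 0.77 CPM per kb in WT and 9.17 ± 1.68 in KO. The 3 zinc finger genes came below it, with Zbtb33 at 6.70 ± 2.09 and 7.59 ± 0.87, Zbtb4 at 4.03 ± 0.95 and 4.79 ± 0.23, and Zbtb38 at 3.10 ± 0.41 and 3.01 ± 0.55 CPM per kb in WT and KO. The lowest were Mbd5, at 2.25 ± 0.41 and 1.85 ± 0.13, and Mbd4, at 1.82 ± 0.17 and 1.82 ± 0.16 CPM per kb. The order of the means was the same in both genotypes. In WT, Mbd2 and Mbd3 overlapped, as did each neighbouring pair from Zbtb33 down to Mbd4, whereas the steps from Mbd3 to Mbd1, from Mbd1 to Mbd6 and from Mbd6 to Zbtb33 did not. In KO, overlapping neighbours were Mbd6 with Zbtb33 and Mbd5 with Mbd4. With the union of all annotated exons as the length, Mbd3 stood above Mbd2 in WT, and Mbd5 below Mbd4 in both genotypes.

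**Figure D1:**
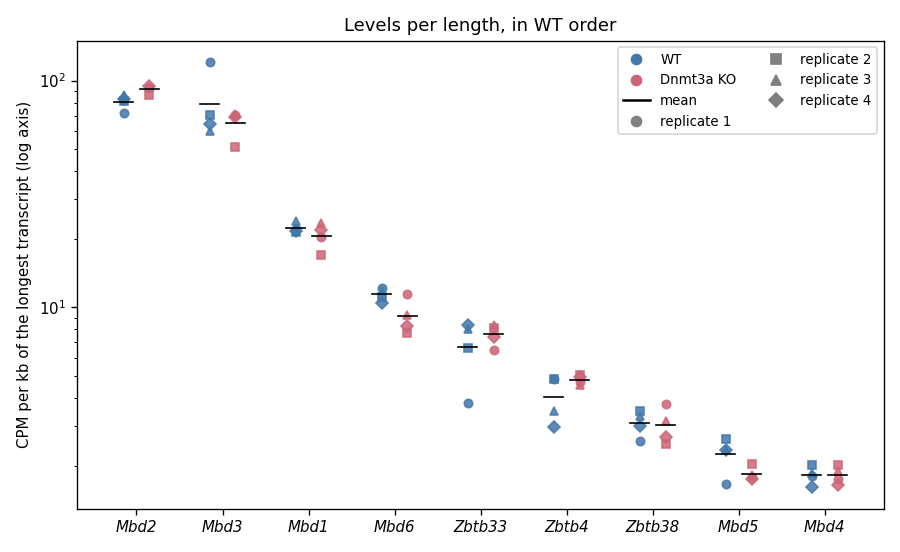
Level of each gene in CPM per kb of the longest transcript, on a log axis, with WT in blue, Dnmt3a KO in red, a symbol for each replicate and a black line at the mean of 4 libraries. The genes run in WT order from Mbd2 (80.5) down to Mbd4 (1.82), with Mbd2 and Mbd3 far above the rest and WT replicate 1 alone at 121 for Mbd3.

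No gene of the 9 passed the test for a difference between genotypes. By the edgeR quasi-likelihood test with Benjamini-Hochberg adjustment over all tested genes, 0 of 9 had an adjusted p under 0.05, where 1.61% of all tested genes did (1.22% higher and 0.392% lower in KO). By DESeq2 and by limma-voom the count was also 0. At an unadjusted p under 0.05 there was 1 of 9 (Mbd6), against 12.7% of all tested genes. The CPM of the genotypes overlapped for all 9 genes, and 9.41% of all tested genes had no overlap. The log2 fold changes of KO over WT ran from -0.31 to 0.25 with a median of -0.046, 5 below and 4 above 0, where the median of all tested genes was -0.018. For all 9 genes the 95% interval lay within a 2-fold change in either direction. The lowest bound was -0.73 (Mbd3) and the highest 0.64 (Zbtb33) in log2 units.

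Mbd2, the NuRD subunit that binds methylated CpG, measured 140, 158, 168 and 163 CPM across WT replicates 1 to 4, and KO replicates 1 to 4 measured 181, 168, 184 and 185 CPM. The genotypes touched at a single point, since WT replicate 3 and KO replicate 2 were both at 168 CPM and the other KO libraries lay above every WT library. The log2 fold change was 0.19 ± 0.093 (SE), with a 95% interval from -0.012 to 0.39 and an edgeR adjusted p of 0.432. In linear terms the interval ran from 0.991-fold to 1.31-fold. Without WT replicate 1, in which Mbd2 was lowest, the log2 fold change was 0.14. After correction for each library's trend on transcript GC and length it was 0.25, with WT replicate 1 at 105 CPM and still the lowest. The Mbd2 transcript has a GC content of 56.5%, above that of 85.4% of tested genes. Mbd2 lies on chromosome 18 from 70568189 to 70626131 in mm10.

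Mbd3, the alternative NuRD subunit, measured 201, 117, 99.2 and 107 CPM across WT replicates 1 to 4, and KO replicates 1 to 4 measured 117, 84.6, 118 and 115 CPM. WT replicate 1 was far above the other 7 libraries, which spanned 84.6 to 118 CPM, and KO replicate 2 was the lowest. The Mbd3 transcript has a GC content of 62.9%, above that of 99.1% of tested genes, and these were the 2 libraries with the strongest positive and negative trend on GC. The log2 fold change was -0.27 ± 0.21 (SE; edgeR adjusted p 0.644), and it was 0.010 without WT replicate 1. After a correction for the trend of every library on length and GC, Mbd3 ran from 113 to 128 CPM in WT and from 109 to 119 CPM in KO. Its log2 fold change was then -0.075, with a 95% interval from -0.22 to 0.068. Mbd3 lies on chromosome 10 from 80392539 to 80399550.

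Mbd1 recruits enzymes that methylate lysine 9 of histone H3. It measured 87.0, 84.1, 94.6 and 85.3 CPM across WT replicates 1 to 4, and KO replicates 1 to 4 measured 79.7, 66.5, 92.7 and 85.6 CPM. KO replicate 2 was the lowest library, and the other KO libraries lay in or just below the WT range. Mbd1 had a log2 fold change of -0.11 with an SE of 0.11 (edgeR adjusted p 0.722), with a 95% interval from -0.36 to 0.13. The value was -0.029 without KO replicate 2 and -0.18 without KO replicate 3. Mbd1 lies on chromosome 18 from 74267605 to 74282732.

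Mbd4 is a DNA glycosylase, which removes the thymine left when methylated cytosine is deaminated. It was the scarcest member, with 84 to 168 counts in a library, and measured 6.48, 7.31, 6.73 and 5.81 CPM across WT replicates 1 to 4, against 6.32, 7.25, 6.86 and 5.92 CPM across KO replicates 1 to 4. The KO values lay entirely within the WT range. Mbd4 had a log2 fold change of 0.0052 with an SE of 0.16 (edgeR adjusted p 0.991), with a 95% interval from -0.34 to 0.35. Mbd4 lies on chromosome 6 from 115840697 to 115853371, and 5% of its exon bases also belong to an antisense gene, Gm44206. The library kit does not mark strand, so reads in such overlaps cannot be told apart.

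Mbd5 and Mbd6 both join the polycomb deubiquitinase PR-DUB, which removes ubiquitin from histone H2A. Mbd5 measured 14.2, 22.4, 20.02 and 20.1 CPM across WT replicates 1 to 4, and KO replicates 1 to 4 measured 15.3, 17.3, 15.6 and 14.9 CPM. WT replicate 1 lay below every KO library, while WT replicates 2 to 4 lay above all of them. The log2 fold change was -0.28 ± 0.15 (SE; edgeR adjusted p 0.485), with a 95% interval from -0.61 to 0.048. Without WT replicate 1 it was -0.39, with a 95% interval from -0.63 to -0.15 and an edgeR adjusted p of 0.0736, the lowest of any member in the 18 alternatives. After the correction for length and GC, Mbd5 ran from 18.0 to 21.7 CPM in WT and from 15.2 to 16.2 CPM in KO. Of the members, Mbd5 alone then had no overlap. The share of all tested genes without overlap after this correction was not computed. The corrected log2 fold change was -0.29, with a 95% interval from -0.51 to -0.069 and an edgeR adjusted p of 0.165. Mbd5 lies on chromosome 2 from 48949508 to 49325405, and 0.693% of its exon bases overlap Orc4 on the opposite strand.

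Mbd6 measured 52.1, 47.8, 50.8 and 44.7 CPM across WT replicates 1 to 4, and KO replicates 1 to 4 measured 49.3, 33.1, 39.5 and 35.3 CPM. KO replicate 1 lay inside the WT range, and the other 3 KO libraries lay below it. The log2 fold change was -0.31 ± 0.13 (SE), the largest in size among the 9, with an unadjusted edgeR p of 0.0372 and an adjusted p of 0.352. The Mbd6 transcript has a GC content of 63.1%, above that of 99.2% of tested genes. Corrected for these trends, Mbd6 had a log2 fold change of -0.15 with a 95% interval from -0.45 to 0.15. The correction moved WT replicate 1 from 52.1 CPM, the highest of the 8 libraries, to 35.1 CPM, the lowest. Without that library and uncorrected, the log2 fold change was -0.28, and without KO replicate 1 it was -0.44. Mbd6 lies on chromosome 10 from 127281956 to 127289018.

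The zinc finger readers followed, with Zbtb4 and Zbtb38 related in sequence and Zbtb33 encoding Kaiso, which works with histone deacetylase corepressors. Zbtb4 measured 37.9, 37.6, 27.2 and 23.2 CPM across WT replicates 1 to 4, and KO replicates 1 to 4 measured 36.6, 39.4, 35.3 and 38.4 CPM. WT replicates 3 and 4 lay below every KO library, and WT replicates 1 and 2 lay among them. Zbtb4 had a log2 fold change of 0.25 with an SE of 0.16 (edgeR adjusted p 0.561), with a 95% interval from -0.097 to 0.61. Without WT replicate 4 it was 0.13. Without WT replicate 1 it was 0.37, with a 95% interval from 0.067 to 0.66 and an edgeR adjusted p of 0.195. After the correction for length and GC it was 0.34, with a 95% interval from 0.012 to 0.66 and an edgeR adjusted p of 0.285. Zbtb4 lies on chromosome 11 from 69765912 to 69784023.

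Zbtb33 measured 19.3, 34.0, 40.9 and 42.9 CPM across WT replicates 1 to 4, and KO replicates 1 to 4 measured 33.1, 41.7, 43.0 and 37.8 CPM. WT replicate 1 was below the other 7 libraries, which spanned 33.1 to 43.0 CPM. The Zbtb33 transcript has a GC content of 39.2%, above that of 4.06% of tested genes. Corrected for each library's trend on GC and length, WT replicate 1 was at 29.2 CPM and still the lowest. The other 7 libraries then ran from 32.8 to 41.5 CPM, and the part of GC content in this departure was not tested. Zbtb33 had a log2 fold change of 0.18 with an SE of 0.21 (edgeR adjusted p 0.777), and it was -0.014 without WT replicate 1, with a 95% interval from -0.26 to 0.23. After the correction it was 0.11, with a 95% interval from -0.12 to 0.35. Zbtb33 lies on chromosome X from 38189793 to 38197046, and 9.25% of its exon bases overlap Tmem255a on the opposite strand.

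Zbtb38 measured 19.07, 25.9, 24.7 and 22.2 CPM across WT replicates 1 to 4, and KO replicates 1 to 4 measured 27.6, 18.4, 23.4 and 19.8 CPM. The WT values lay entirely within the KO range. Zbtb38 had a log2 fold change of -0.046 with an SE of 0.16 (edgeR adjusted p 0.929), with a 95% interval from -0.39 to 0.30. Zbtb38 lies on chromosome 9 from 96682770 to 96752831.

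**Figure D2:**
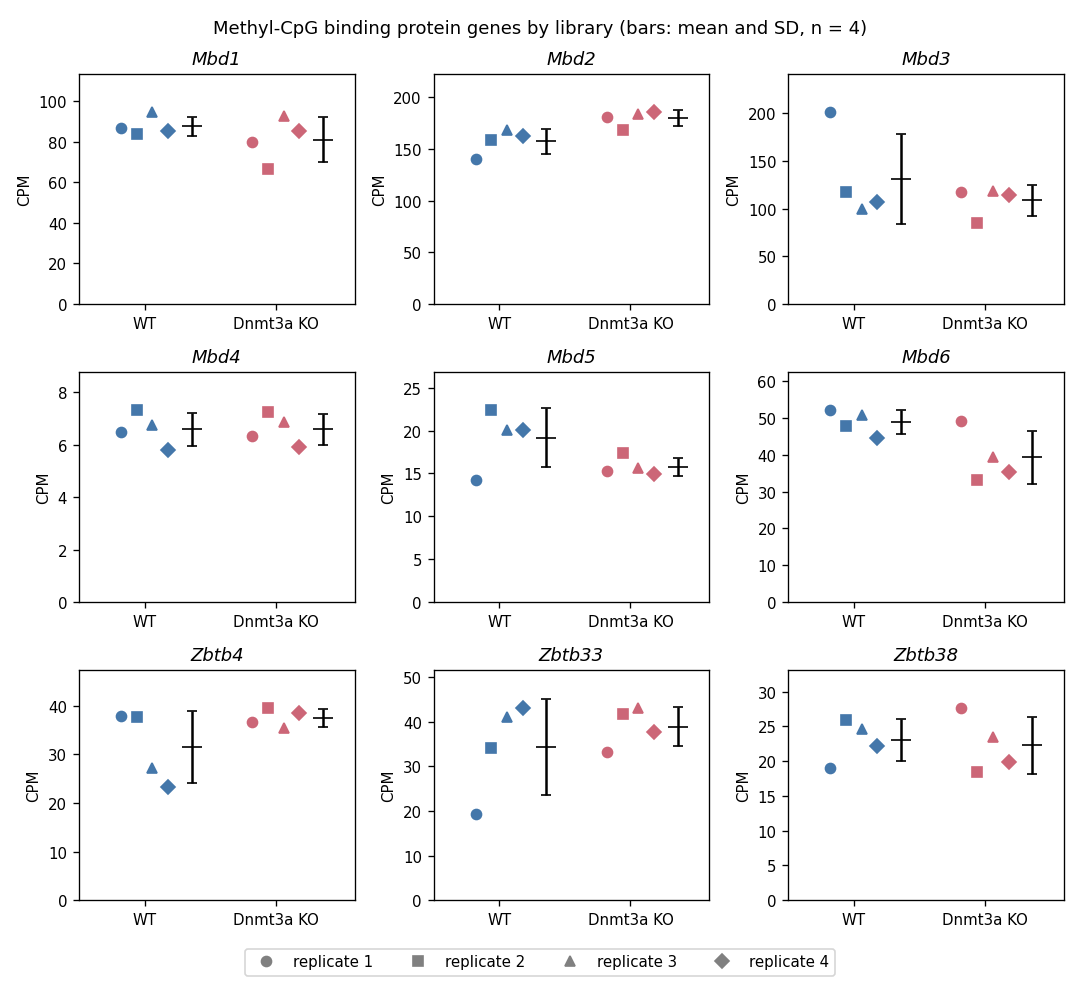
CPM of each gene in the 8 libraries, with WT in blue, Dnmt3a KO in red, a symbol for each replicate, and a black bar for the mean and SD of 4 libraries. The genotypes overlap in every panel, and WT replicate 1 stands apart for Mbd3 (201 CPM) and Zbtb33 (19.3 CPM).

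The spread between libraries is given here as a coefficient of variation, without a test. In WT it was 35.95% for Mbd3, 31.2% for Zbtb33 and 23.5% for Zbtb4, against 5.39% for Mbd1 and 6.76% for Mbd6. Without WT replicate 1 the WT values were 108 ± 9.07 CPM for Mbd3, 39.3 ± 4.69 for Zbtb33 and 29.3 ± 7.41 for Zbtb4 (SD, n = 3). With that library the SDs were 47.2, 10.7 and 7.41 CPM. In KO the coefficient of variation was 18.4% for Zbtb38 and 18.3% for Mbd6, and 4.36% for Mbd2 and 4.89% for Zbtb4. The median over the 9 members was 13.2% in WT and 11.4% in KO, and the median over all tested genes was 18.0% and 11.7%.

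**Figure D3:**
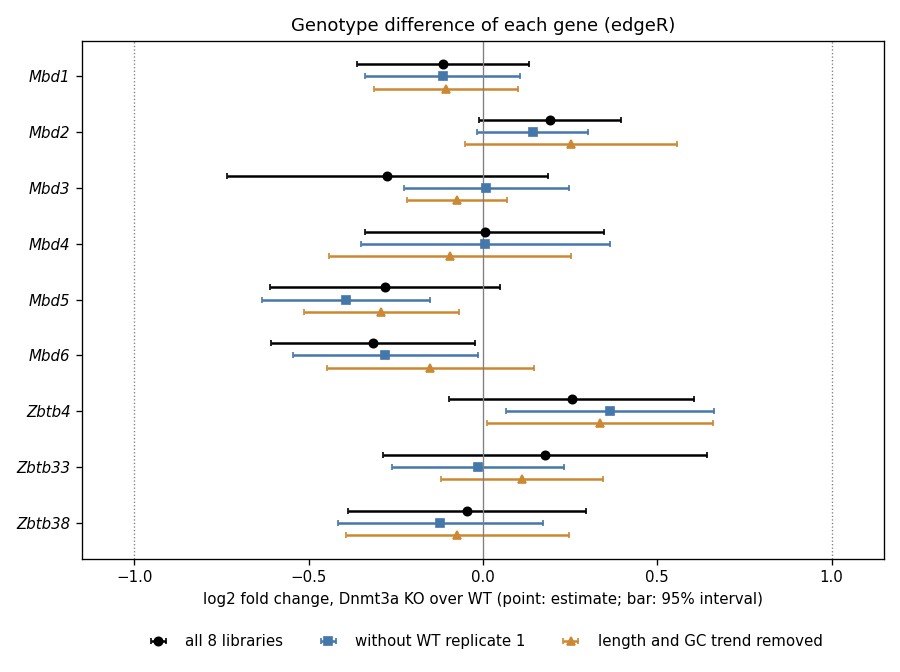
Log2 fold change of KO over WT with its 95% interval for each gene, in all 8 libraries (black), without WT replicate 1 (blue) and after correction for length and GC (orange); dotted lines mark a 2-fold change. Every interval lies inside the dotted lines, and the interval of Mbd3 narrows from between -0.73 and 0.19 to between -0.22 and 0.068 after trend removal.

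The authors' deposited table gives the same comparison with the sign turned round, since it lists Dnmt3a with a positive value, so its fold changes are WT over KO. An adjusted p under 0.05 stood beside 0 of the 9 genes in the authors' deposited table, against 3.15% of the genes with a value there. In the authors' deposited table the lowest adjusted p of the 9 was 0.336 for Mbd6, with a log2 fold change of 0.31 (WT over KO), and Mbd2 had 0.405, with -0.19.

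Ratios of related genes were taken within each library, where scaling between libraries plays no part. A trend on GC content does not cancel where the transcripts differ in it, and the ratios were not corrected for it. The GC content was 62.9% for Mbd3 and 56.5% for Mbd2, and 63.1% for Mbd6 and 45.8% for Mbd5. For Zbtb38 and Zbtb4 it was 45.5% and 52.6%. The count ratio of Mbd3 to Mbd2, the alternative NuRD subunits, was 1.44, 0.740, 0.589 and 0.661 across WT replicates 1 to 4, against 0.647, 0.503, 0.642 and 0.618 across KO replicates 1 to 4. In counts, which are not divided by transcript length, Mbd3 exceeded Mbd2 in WT replicate 1 only, and the genotypes overlapped. Per kb of union exons Mbd3 exceeded Mbd2 in further libraries of both genotypes. The log2 ratio was -0.32 ± 0.58 in WT and -0.74 ± 0.17 in KO (SD, n = 4 each), a difference of -0.42 with a two-sided exact permutation p of 0.2, or 0.429 after adjustment over the 3 ratios. The difference was -0.14 without WT replicate 1, and without WT replicate 3 it was -0.57 with an unadjusted exact permutation p of 0.0286, the smallest that 7 libraries allow.

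The count ratio of Mbd6 to Mbd5, both partners of PR-DUB, was 3.66, 2.14, 2.54 and 2.22 across WT replicates 1 to 4, against 3.23, 1.91, 2.53 and 2.37 across KO replicates 1 to 4. The ranges of the genotypes nearly coincided, and the difference of the mean log2 ratio was -0.063 (two-sided exact permutation p 0.771, adjusted 0.771). The sign of that difference turned without WT replicate 1 (0.11) and without KO replicate 2 (0.059). The count ratio of Zbtb38 to Zbtb4 was 0.503, 0.690, 0.906 and 0.958 across WT replicates 1 to 4, against 0.754, 0.467, 0.663 and 0.516 across KO replicates 1 to 4. It overlapped between genotypes as well, with a difference of -0.33 in the mean log2 ratio (two-sided exact permutation p 0.286, adjusted 0.429). The difference was -0.52 without WT replicate 1 and -0.21 without WT replicate 4.

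**Figure D4:**
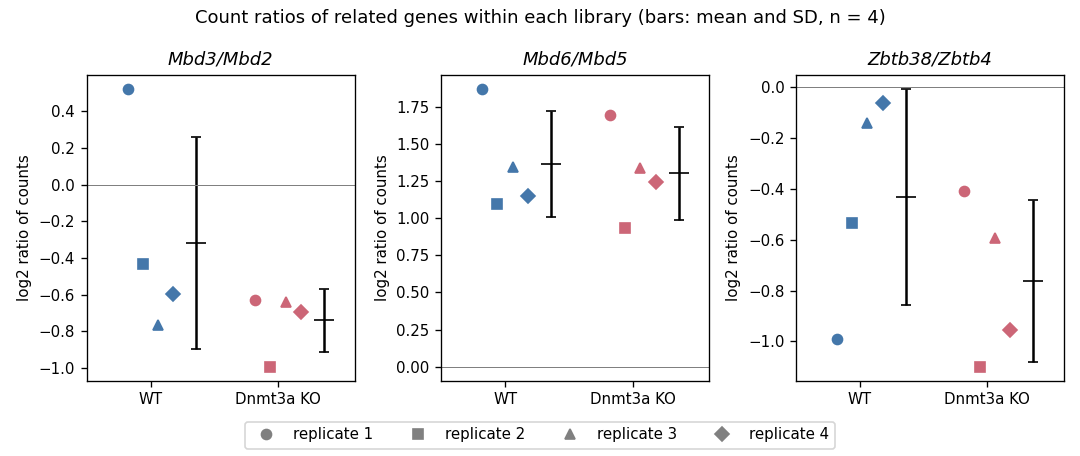
Log2 ratio of the counts of Mbd3 to Mbd2, Mbd6 to Mbd5 and Zbtb38 to Zbtb4 in each library, with WT in blue, Dnmt3a KO in red, a symbol for each replicate, and a black bar for the mean and SD of 4 libraries. All 3 ratios overlap between the genotypes, and WT replicate 1 is the highest library for the first 2 panels.

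The complexes through which the readers act were described from lists of their subunits. In NuRD, 0 of 13 tested genes rose or fell by the edgeR test (1 at an unadjusted p under 0.05), and the median log2 fold change was -0.083, against -0.018 for all tested genes. Its remodelling ATPase gene Chd4 had a mean of 493 ± 15.7 CPM in WT against 448 ± 17.4 CPM in KO (SD, n = 4 each; edgeR adjusted p 0.546). The NuRD gene with the smallest p was Chd5, a related ATPase known mainly from neurons and testis, at 2.69 ± 0.51 and 1.56 ± 0.58 CPM (log2 fold change -0.80 ± 0.30, SE; edgeR adjusted p 0.277). Among the partners of Mbd1 in histone H3 lysine 9 methylation, 0 of 8 tested genes passed (0 at an unadjusted p under 0.05), with a median of -0.056. The smallest p there was that of Atf7ip, which links Mbd1 to the methyltransferase Setdb1, at 31.8 ± 4.73 and 37.1 ± 2.40 CPM (edgeR adjusted p 0.520).

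In PR-DUB, the complex of Mbd5 and Mbd6, 0 of 8 tested genes passed (1 at an unadjusted p under 0.05). All 8 had a log2 fold change below 0, from -0.35 to -0.072 with a median of -0.14, where 53.1% of all tested genes lay below 0. That held under each scaling, while 7 of 8 lay below 0 without WT replicate 3 (median -0.13) and after correction for length and GC (median -0.067). Kdm1b, which encodes a demethylase of histone H3 lysine 4 and was listed with this group, had the smallest p, with means of 27.7 ± 3.78 CPM (WT) and 21.8 ± 1.83 CPM (KO) (log2 fold change -0.35 ± 0.13, SE; edgeR adjusted p 0.284). Among genes of base excision and mismatch repair, the pathways around Mbd4, 0 of 15 passed (3 at an unadjusted p under 0.05), with 9 below 0 and a median of -0.26. Parp1, which senses DNA strand breaks, was at 159 ± 11.98 and 133 ± 1.205 CPM (log2 fold change -0.26 ± 0.089, SE; edgeR adjusted p 0.228).

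Among corepressors of the Zbtb readers, 0 of 12 passed (1 at an unadjusted p under 0.05), with a median of -0.045. Of 9 further genes with an MBD-like or SRA domain, 6 were tested and 0 passed (1 at an unadjusted p under 0.05), with a median of -0.15. Uhrf1, which reads hemimethylated CpG at replication forks and guides Dnmt1 there, was at 58.4 ± 8.34 and 46.9 ± 6.23 CPM (edgeR adjusted p 0.352). Mbd3l1 and Mbd3l2, germline relatives of Mbd3, had 0 counts and 1 count over the 8 libraries. By DESeq2 and by limma-voom 0 genes passed in each of these 6 lists as well, and the count was also 0 without WT replicate 1 and after correction for length and GC. Leaving out single libraries moved the NuRD median between -0.12 (without KO replicate 4) and -0.0083 (without KO replicate 2), where it lay above that of all genes. The same step gave medians from -0.083 to -0.038 for the Mbd1 partners, from -0.16 to -0.11 for PR-DUB and from -0.28 to -0.14 (without WT replicate 1) for repair. It gave -0.067 to -0.019 (without WT replicate 3) for the corepressors and -0.19 to -0.11 for the MBD-like and SRA genes.

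Among 6 DNA methyltransferase and cofactor genes, Dnmt3a fell and 0 rose (3 at an unadjusted p under 0.05, Dnmt3a among them). Its mean went from 161 ± 10.0 CPM to 34.4 ± 3.70 CPM (log2 fold change -2.22 ± 0.11, SE; edgeR adjusted p 1.08e-06). The median of that list was -0.042, and it ran from -0.095 (without WT replicate 1) to 0.013 (without KO replicate 1) when single libraries were left out. Dnmt1, the maintenance enzyme, had a log2 fold change of -0.23 (edgeR adjusted p 0.322) and Dnmt3b, the other de novo enzyme, 0.061 (edgeR adjusted p 0.906). Dnmt3l had the highest of the list, at 0.41 (edgeR adjusted p 0.360). Of 16 genes listed as germline genes that promoter methylation silences in somatic cells, 2 passed the filter on low counts. Both had counts in WT, so their values do not describe silent genes. Neither was called by edgeR, DESeq2 or limma-voom (0 at an unadjusted p under 0.05 by edgeR). Their median was -0.20, with a range from -0.40 (without KO replicate 2) to -0.080 (without WT replicate 3) when single libraries were left out. Dpep3, which had the smaller p, had means of 6.10 ± 2.07 CPM (WT) and 5.21 ± 0.74 CPM (KO) (edgeR adjusted p 0.738). Summed over all 16, WT libraries held 698 counts and KO libraries 514, of which Dpep3 gave 463 and 329. Scaled to library size, the sums overlapped, at 7.69 to 12.3 CPM in WT and 7.23 to 9.15 CPM in KO. Of the 16 genes, 7 had fewer than 3 counts in every library.

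**Figure D5:**
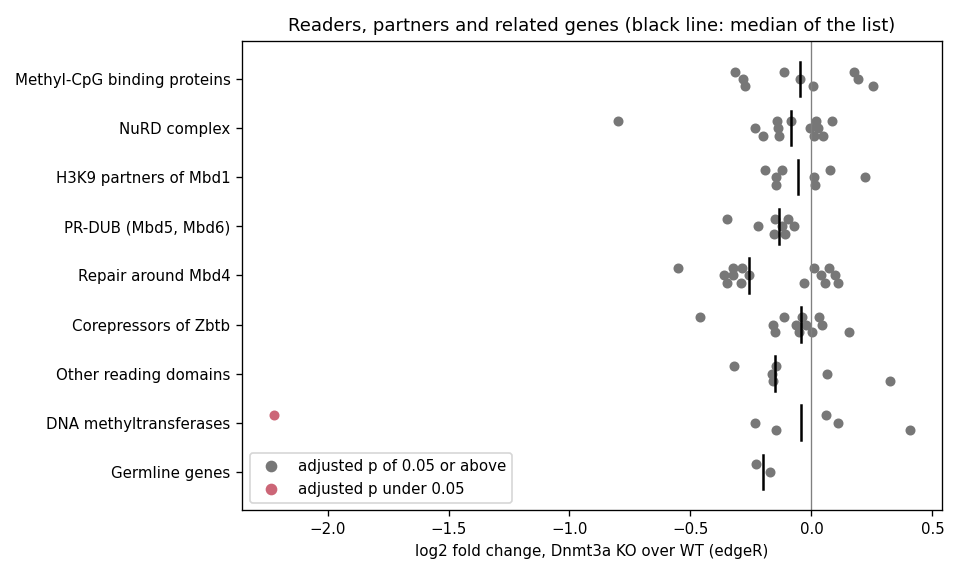
Log2 fold change of KO over WT for each tested gene of the 9 readers and of the lists of their partners and related genes, with a black line at the median of each list; red marks an edgeR adjusted p under 0.05. Dnmt3a at -2.22 is the only red point, and the medians lie between -0.26 and -0.042.

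The genes most like 2 of the readers in their pattern over the 8 libraries were found by Pearson correlation of log2 CPM, among all tested genes outside the 9. For Mbd6, the member with the smallest p, they were Pgap3 (r = 0.97), Rab11fip3 (r = 0.96) and 1810044D09Rik (r = 0.96). For Mbd2, the member with the highest level per length, they were 1810033B17Rik (r = 0.98), Clec4a4 (r = 0.98) and Col27a1 (r = 0.98). None of these 6 genes passed the edgeR test, with adjusted p from 0.138 to 0.548. The libraries differ in their trend on GC content, and the highest of 12507 correlations over 8 libraries is high by selection, so the values are a description.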

How the data were processed

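RNA-seq libraries of 4 WT and 4 Dnmt3a KO macrophage cultures were compared. Per the submitters' processing notes, the tools were Trimmomatic 0.39, STAR 2.7.0a and featureCounts, and the build mm10; in the sources used here counting settings were not given. The authors deposited unnormalised counts for every gene symbol. A second deposited table holds the authors' comparison, with a mean of normalised counts (a signal value), a log2 fold change and its standard error, a test score, and a p-value and adjusted p-value per gene; it was used only where named.

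Genes were filtered with filterByExpr (minimum count 10), scaled by TMM and compared between genotypes by the quasi-likelihood test of edgeR 4.0.16 (R 4.3.3), adjusted by Benjamini-Hochberg over 12507 genes with a threshold of 0.05. A standard error is the log2 fold change over the square root of F, and intervals are 95%. Log2 CPM used a prior count of 2. Ratios were tested by exact permutation over 70 arrangements, whose smallest two-sided p is 0.0286. DESeq2 1.42.0 and limma 3.58.1 (voom), other scalings and filters, a replicate block and each library left out were alternatives. The correction for each library's trend on length and GC of the longest GENCODE M21 transcript (loess, span 0.3, 88.9% of tested genes) was chosen after seeing the data. Simulated counts with known changes were used to check both kinds of fit.

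The members and lists were chosen with earlier results of these data known. All 9 members and Dnmt3a are named. In each list the text names up to 3 called genes, or else the gene with the smallest p (for the corepressors it is not reported here; of the marker lists other than macrophage and neutrophil, only called genes are named); Chd4, Dnmt1, Dnmt3b, Csf1r, Mbd3l1 and Mbd3l2 were added after their values were seen. The germline and partner lists are textbook groupings, and Setdb1 is in 2 of them. No 2 libraries of a genotype agreed within sampling noise (chi-square per gene of at least 6.66). Symbols turned into dates stand in 25 rows, none of them a member.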

Additional observations from a re-analysis of the deposited data

Results flagged for a closer look

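In KO, Mbd3 had 1 library far from the other 3. KO replicate 2 was at 84.6 CPM and the others between 115 and 118 CPM, so that the gap to the nearest library took 0.895 of the whole range, more than Dixon's limit for 4 samples. This library also had the most negative trend on GC content (rho -0.60), and after correction for that trend Mbd3 was at 109 CPM there and at 112 to 119 CPM in the other 3. This was the single case among 26 groups of values examined, of which chance gives about 1 in 20.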

How the results depend on the processing

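None of the 9 genes passed the threshold in any of 18 alternatives, DESeq2 and limma-voom among them. Of 162 member values under these, 151 kept their sign and 11 changed it, all uncalled. Mbd3 changed sign without WT replicate 1 (0.010; leaving out single libraries gave -0.39 to 0.010), as did Zbtb33 (-0.014; range -0.014 to 0.31). Zbtb38 changed sign without any of WT replicate 2 (0.016), KO replicate 2 (0.038) and KO replicate 4 (0.0072), in a range from -0.16 to 0.038. Mbd4 changed sign with no scaling factors (-0.010), after correction for length and GC (-0.095, or -0.089 with the replicate block as well), and without single libraries (range -0.054 to 0.058). The labels do not say whether the replicate numbers pair the libraries, and the values did not settle it. Same-numbered libraries deviated together with correlations from -0.019 to 0.28, and 5 of 8 correlated best with their own number. With the replicate block 260 genes were called and 0 members, against 201 and 0. Sign-flip tests on the replicate block gave exact p of 0.375 (Mbd3 to Mbd2), 0.375 (Mbd6 to Mbd5) and 0.5 (Zbtb38 to Zbtb4), where the smallest possible is 0.125.

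The count of called genes (201, of which 152 higher and 49 lower) was 399 (302 and 97) with no filter, 551 (363 and 188) with DESeq2, 118 (100 and 18) past a log2 fold change of 1, 425 (312 and 113) after correction for length and GC, and 569 (409 and 160) with that and the replicate block. Leaving out single libraries gave 484 (WT replicate 1), 103 (WT replicate 2), 120 (KO replicate 1), 126 (KO replicate 2) and 118 (KO replicate 4), and 138 to 168 for the other 3, with 82 to 341 higher and 21 to 143 lower. The differences in log2 ratio then ran from -0.57 to -0.14 for Mbd3 to Mbd2, from -0.19 to 0.11 for Mbd6 to Mbd5 (0.059 without KO replicate 2), and from -0.52 to -0.21 for Zbtb38 to Zbtb4. The cause of these moves was not tested. Depth limits Mbd4 most, with 84 counts in its smallest library.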
